A study of Drosophila melanogaster with 6 samples.

Results

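Genes for subunits of the proteasome were compared between ovaries of Drosophila melanogaster labelled uap56 and ovaries labelled vasa. A gene was taken when its name in the transcript tables began with Prosalpha, Prosbeta, ProsMA or Pros and a digit, or with Rpn or Rpt and a digit. This gave 31 genes of the 13690 genes tested. They comprised 16 genes of the core particle and 15 of the regulatory particle, of which 25 are standard subunits and 6 are paralogues with names of the testis type. The tables used older names for several of them, and current symbols are used here (Pros26.4 is Rpt2, Pros45 is Rpt6, Pros54 is Rpn10, and the entry named Prosalpha6 is the gene now called Prosalpha1).

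Each group had 3 Affymetrix tiling arrays, hybridized with total ovary RNA. The gene Hel25E encodes UAP56, an RNA helicase that acts in splicing and nuclear export of mRNA. The gene vas encodes Vasa, an RNA helicase of germ cells, and the title of the series names piRNA clusters and transposon silencing. Flies of both groups grew on cornmeal food, with yeast paste for the adults. The sources used here give no allele, strain or age and do not say whether animals were pooled. Ovaries wild type for both genes were not analysed here, and a difference can therefore come from either group. Nothing in the labels says that replicates came from separate animals, so p-values measure the spread between these arrays, which may be technical.

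The proteasome degrades proteins that carry chains of ubiquitin. Its core particle is a barrel of stacked rings, with outer rings of alpha subunits that control entry and inner rings of beta subunits that hold the active sites. Its regulatory particle caps the barrel: a ring of ATPases (Rpt subunits) unfolds the substrate, and the non-ATPases (Rpn subunits) bind ubiquitin, remove it or hold the assembly together. In flies several subunits have a second gene used mainly in the male germline.

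Intensities are the authors' normalized values, on a linear scale, and differences are log2 of uap56 minus log2 of vasa from a limma fit across all genes. The median gene stood between 124 and 133 on the 6 arrays, and Pearson's r across genes ran from 0.874 to 0.8996 for arrays of the same group and from 0.863 to 0.881 for arrays of different groups (genes are not independent replicates). The vas signal was 1698 ± 341 in uap56 and 297.3 ± 75.1 in vasa (SD, n = 3 each; limma adjusted p = 0.00183). The Hel25E signal averaged 1419 ± 326 in uap56 and 1610.3 ± 192 in vasa (adjusted p = 0.642 in limma), so its level does not check the uap56 label. Of 7 ovarian germline markers and of 7 follicle cell markers, 6 each lay above the median gene on every array. The germline marker nanos passed the test, higher in uap56 (difference 0.69). The other germline markers did not pass, and most lay toward vasa: osk -0.53, grk -0.65, otu -0.53, orb -0.49 and bam -0.27, with bcd at 0.01. All 7 testis markers lay below the median gene on every array. Their intensities summed to 190 to 373 in uap56 and 178 to 284 in vasa. Muscle markers summed to 4359 to 6589 in uap56 and 4234 to 6014 in vasa, those of hemocytes to 211 to 218 in uap56 and 198 to 313 in vasa, and those of the fat body to 235 to 411 in uap56 and 262 to 494 in vasa, with overlapping ranges. In such RNA, fewer cells of a type and less RNA per cell cannot be told apart.

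The difference between the groups was under 1.5-fold for 26 of 31 subunit genes (83.9%, all genes 72.5%). The share was 92% for the 25 standard subunits and 50% for the 6 testis-type paralogues. It was 84.1% for the 10% of genes with the highest mean intensity, to which only the standard subunits belong. Prosbeta5, which encodes the subunit with the chymotrypsin-like active site, was 1.74-fold higher in uap56, and Rpn12, which encodes a subunit of the lid of the regulatory particle, was 1.76-fold higher in uap56. These 2 of 31 members passed an adjusted p of 0.05, and 0 passed toward vasa. Over all genes 2.48% passed toward uap56 and 1.35% toward vasa (3.83% in either direction). Of the 1369 genes in the brightest 10%, 89 passed toward uap56 and 40 toward vasa. After quantile normalization the calls over all genes were 376 toward uap56 and 344 toward vasa, against 340 and 185 as deposited. At an unadjusted p under 0.05, 4 members were higher in uap56 (10.8% of all genes) and 1 in vasa (7.38% of all genes). Of the 1369 brightest genes, 305 were higher in uap56 and 189 in vasa at that p. The 3 arrays of each group did not overlap for 5 members with uap56 higher (13.5% of all genes) and for 2 with vasa higher (10% of all genes). Of the 1369 brightest genes, 316 had arrays that did not overlap with uap56 higher and 206 with vasa higher. The fit with a single variance prior, which called 1 gene each way in the whole table, called 0 members.

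Among the 25 standard subunits the difference was below 1.5-fold for 23, and for 23 the 95% interval of the difference lay within 2-fold in both directions. That interval lay within 2-fold for 44.9% of all genes and for 84.8% of the 10% of genes with the highest mean intensity, to which the standard subunits belong. The standard error of a standard subunit's log2 difference was 0.12 to 0.20, and its median over the 10% brightest genes was 0.16. Of the 25, 17 (68%) had a difference above 0, where 51.4% of all genes and 56.4% of the brightest 10% did. Their median difference was 0.20, beside 0.02 over all genes and 0.07 over the brightest 10%.

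**Figure D1:**
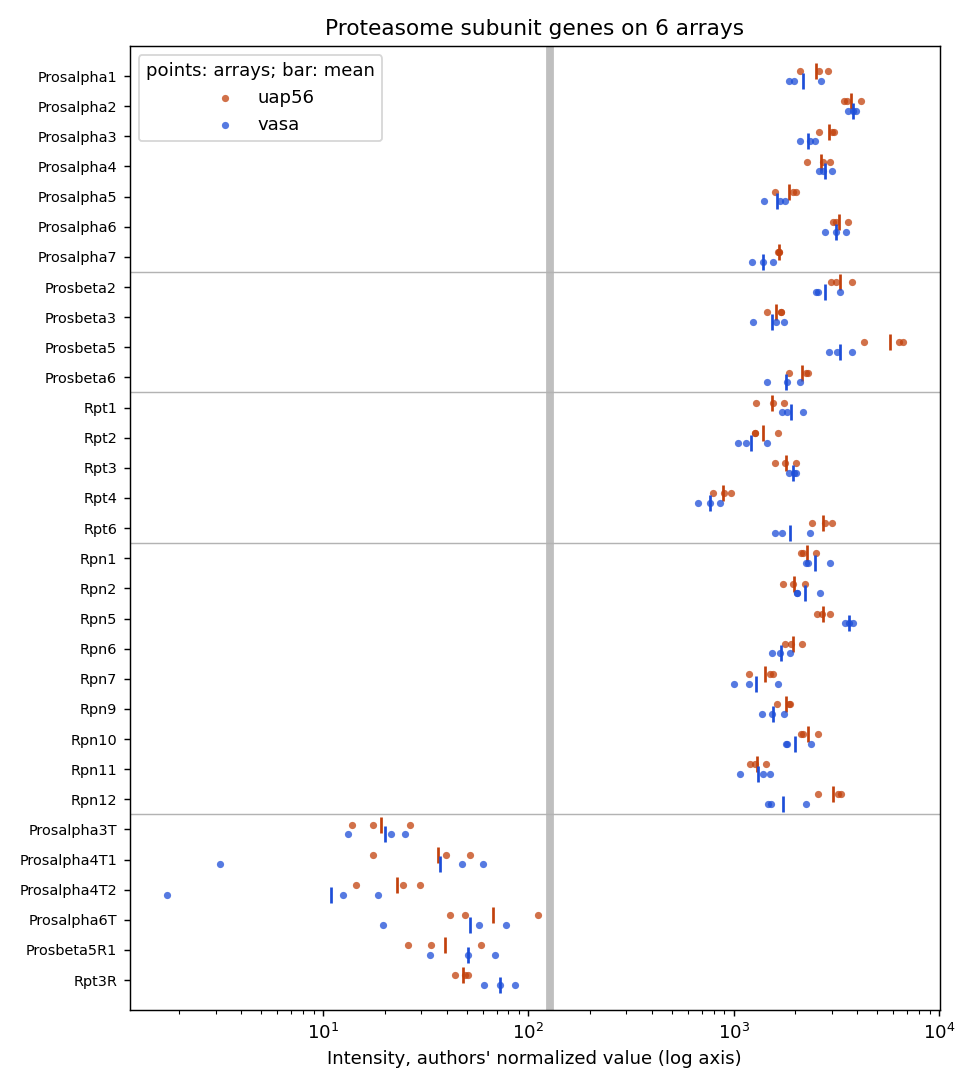
Intensity of each of the 31 proteasome genes on each array (horizontal log axis, the authors' normalized values), with uap56 above vasa in each row, points for the 3 arrays of a group and a bar for their mean. Horizontal lines separate alpha, beta, Rpt, Rpn and testis-type genes, and the vertical grey band spans the median gene of the 6 arrays (124 to 133). All 25 standard subunits lie to the right of the band and all 6 testis-type paralogues to the left.

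The standard alpha ring genes among the members are Prosalpha1 to Prosalpha7, and 0 of the 7 passed the test (1, Prosalpha3, had an unadjusted p under 0.05). Prosalpha3 had intensities of 2615, 3088 and 3029.7 in uap56, against 2497, 2342 and 2103 in vasa. Every uap56 array lay above every vasa array, by a log2 difference of 0.33 ± 0.13 (SE) that did not pass (adjusted p = 0.221 in limma). Prosalpha7 also had arrays that did not overlap, with 1669, 1669 and 1646 in uap56 and 1563, 1397 and 1229 in vasa (log2 difference 0.26, 95% interval -0.05 to 0.56).

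The other alpha genes had overlapping arrays. Prosalpha2 had 3569, 4176 and 3440 in uap56 and 3819, 3613 and 3962 in vasa, a difference of -0.03 (95% interval -0.31 to 0.25). Prosalpha4 had 2289, 2941 and 2718 in uap56 and 3005, 2714 and 2615 in vasa (-0.07, 95% interval -0.38 to 0.23). In both genes uap56 replicate 2 was the highest uap56 array and lay within or above the range of the vasa arrays. Prosalpha6 averaged 3272 ± 291 in uap56 and 3150.3 ± 372 in vasa (0.06). Prosalpha5 was at 1851 ± 222 in uap56 and 1619 ± 197 in vasa (0.19). Prosalpha1 was at 2527 ± 385 in uap56 and 2172 ± 435 in vasa (0.23). Prosalpha1 has a neighbour on the same chromosome arm, Prosalpha1R, a second copy that the name pattern missed. The values of Prosalpha1R ran close to those of Prosalpha1 (2790 ± 569 in uap56 and 2236 ± 418 in vasa). How far the 2 genes share probes was not tested, and both levels are uncertain for that reason.

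The beta ring holds the active sites, and its 4 standard members all had differences above 0. Prosbeta5 had 4298, 6360.3 and 6666 in uap56, against 3775, 3180 and 2902 in vasa. The arrays did not overlap, and uap56 replicate 1 stood well below the other 2 uap56 arrays. Its log2 difference was 0.80 ± 0.18 (SE; 95% interval 0.38 to 1.21; adjusted p = 0.0470 in limma). The call was lost in 4 of the 6 fits that left out 1 array. These lacked uap56 replicate 2 (adjusted p = 0.166 in limma), uap56 replicate 3 (0.1395), vasa replicate 2 (0.138) or vasa replicate 3 (0.167), and there the difference was 0.68 to 0.78. Its 2 transcript entries gave 0.80 and 0.72.

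Prosbeta2, whose product has the trypsin-like site, had 2985, 3787 and 3155 in uap56 and 3287, 2573 and 2522 in vasa (0.25, 95% interval -0.09 to 0.59). Vasa replicate 1 lay above 2 of the 3 uap56 arrays. Prosbeta6, a subunit without an active site, had 2313, 2249 and 1867 in uap56 and 2111, 1817 and 1448 in vasa (0.27), and Prosbeta3, also without one, averaged 1616 ± 145 in uap56 and 1536 ± 261 in vasa (0.08). The arrays of the groups overlapped for all of these, and none passed the test (adjusted p = 0.445 to 0.842 in limma).

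Of the 5 standard ATPase genes, 0 passed the test (1, Rpt6, had an unadjusted p under 0.05), with 3 above and 2 below 0. Rpt6 had 2400.5, 3018 and 2779.8 in uap56, against 2348, 1719 and 1589.9 in vasa. The arrays did not overlap, although the lowest uap56 array and vasa replicate 1 were close. The log2 difference of 0.55 ± 0.17 (SE) did not pass (adjusted p = 0.121 in limma) but passed without vasa replicate 1 (0.72, adjusted p = 0.0407). Rpt1 had 1549, 1752 and 1290.3 in uap56 and 2172, 1825 and 1720.5 in vasa, a difference toward vasa (-0.32, adjusted p = 0.331 in limma) with 1 uap56 array inside the vasa range. The other 3 ATPase genes had overlapping arrays. Rpt4 had 790.05, 968 and 895 in uap56 and 859.5, 770.3 and 673 in vasa (0.21). Rpt3 had 1583, 2004 and 1789 in uap56 and 2021, 1965 and 1861 in vasa (-0.13). Rpt2 averaged 1393 ± 212 in uap56 and 1219 ± 216 in vasa (0.20).

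Among the 9 standard non-ATPase genes, Rpn12 alone passed. Rpn12 had 2561, 3334 and 3223 in uap56, against 2251, 1469 and 1515 in vasa. Every uap56 array lay above every vasa array, and vasa replicate 1 stood above the other 2 vasa arrays. The log2 difference was 0.82 ± 0.19 (SE; 95% interval 0.39 to 1.24; adjusted p = 0.0472 in limma). Leaving out the same 4 arrays as for Prosbeta5, 1 at a time, ended its call. The adjusted p in limma was then 0.165 (uap56 replicate 2), 0.131 (uap56 replicate 3), 0.160 (vasa replicate 2) and 0.168 (vasa replicate 3), and the difference 0.71 to 0.77.

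Rpn5, another subunit of the lid, differed the other way. It had 2707, 2940.3 and 2534 in uap56, against 3804, 3472 and 3645 in vasa. The arrays did not overlap and the spread within groups was small, with a log2 difference of -0.42 ± 0.12 (SE; 95% interval -0.69 to -0.15) and an adjusted p of 0.0911 in limma. It passed toward vasa after quantile normalization (adjusted p = 0.0261 in limma).

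The remaining non-ATPase genes had overlapping arrays. The large scaffold subunits that touch the ATPase ring lay slightly below 0, Rpn1 at -0.13 and Rpn2 at -0.18. Rpn1 averaged 2275 ± 219 in uap56 and 2496 ± 384 in vasa. Rpn2 had 1952, 2225 and 1734 in uap56 and 2633, 2028 and 2031 in vasa. For both, the highest of the 6 arrays was vasa replicate 1. Rpn10, a ubiquitin receptor, had 2175, 2586 and 2139 in uap56 and 2368, 1825 and 1807 in vasa (0.21), so vasa replicate 1 lay among the uap56 arrays. Rpn11, the subunit that cleaves ubiquitin from substrates, averaged 1304 ± 127 in uap56 and 1319 ± 219 in vasa (-0.01, 95% interval -0.37 to 0.36). Rpn9, a lid gene, had 1888, 1869.6 and 1629.6 in uap56 and 1766, 1542 and 1372 in vasa (0.21). Also in the lid, Rpn6 averaged 1944 ± 189 in uap56 and 1695 ± 173 in vasa (0.20), and Rpn7 1414 ± 193 in uap56 and 1279 ± 326 in vasa (0.17). The differences of Rpn9, Rpn6 and Rpn7 did not pass (adjusted p = 0.502 to 0.726 in limma). Of the other lid genes among the members, Rpn12 lay at 0.82, Rpn5 at -0.42 and Rpn11 at -0.01.

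**Figure D2:**
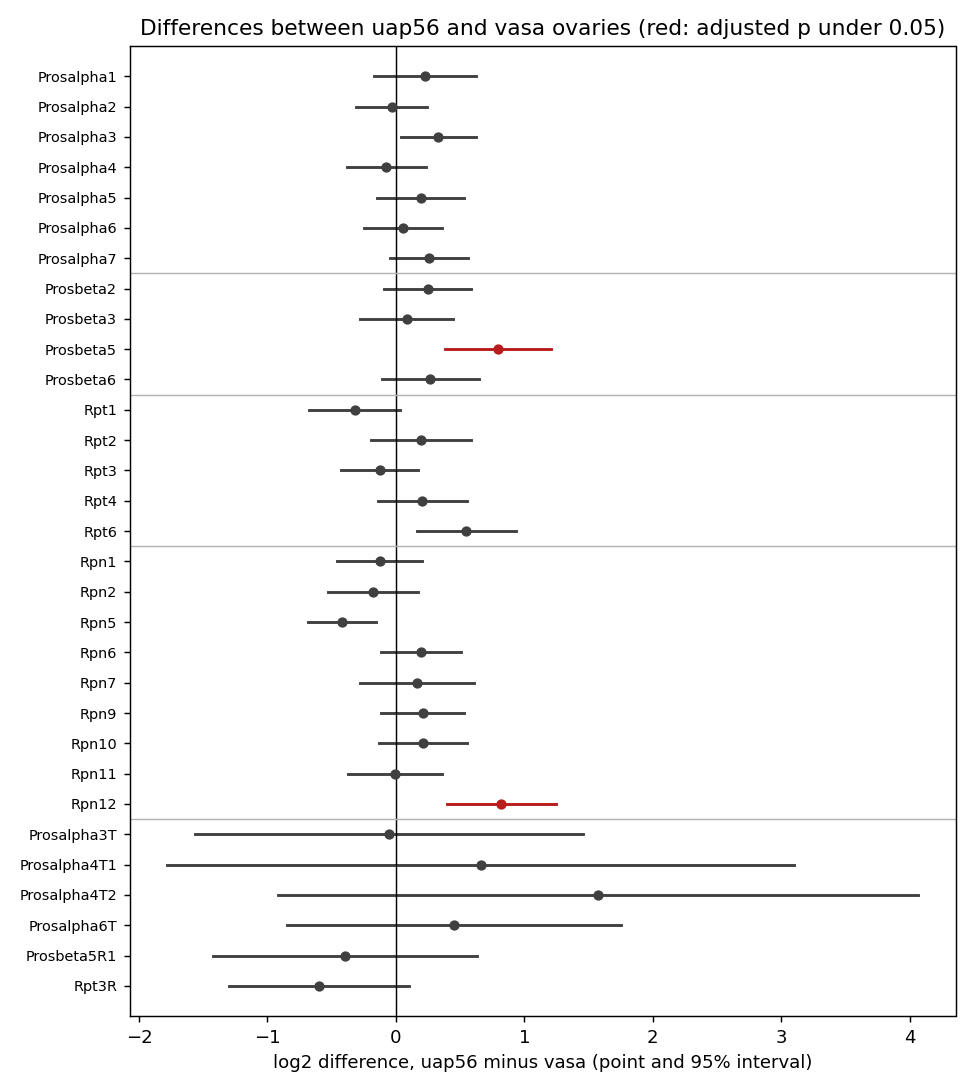
Log2 difference between uap56 and vasa (horizontal axis, positive when higher in uap56) for each of the 31 genes, as the limma estimate with its 95% interval. Prosbeta5 (0.80) and Rpn12 (0.82), in red, passed an adjusted p of 0.05, and the intervals of the 6 testis-type paralogues at the bottom are wider than those of the standard subunits.

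Core and regulatory particle were set side by side by counts and medians, without a test, since the members were chosen with earlier results of these data known. Of the 11 standard core subunits, 9 had a difference above 0 and the median was 0.23. Of the 14 standard regulatory subunits, 8 were above 0 and the median was 0.18. The core median ran from 0.12 (vasa replicate 3 left out) to 0.34 (vasa replicate 1 left out), and was 0.15 when uap56 replicate 2 was left out. The regulatory median was 0.28 when vasa replicate 1 was left out, and 0.09 to 0.11 when uap56 replicate 1, uap56 replicate 2, vasa replicate 2 or vasa replicate 3 was. The differences of the core subunits ran from -0.07 to 0.80 and those of the regulatory subunits from -0.42 to 0.82. With the paralogues included the medians were 0.24 for 16 core genes and 0.17 for 15 regulatory genes, and each particle had 1 gene past the threshold. The order of the medians was not stable: without uap56 replicate 3 the core median minus the regulatory median was -0.02, against 0.07 with all arrays.

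Many subunits had their highest or lowest value on the same arrays. Of the 25 standard subunits, 10 (40%) had their highest value on uap56 replicate 2 and 9 (36%) on vasa replicate 1. The lowest value was on vasa replicate 3 for 16 (64%) and on uap56 replicate 3 for 4 (16%). Of the 10% brightest genes, 36.0% had their highest value on uap56 replicate 2 and 26.7% on vasa replicate 1. Their lowest was on vasa replicate 3 for 27.5% and on uap56 replicate 3 for 34.5%. Over all genes these shares were 24.1%, 17.8%, 18.9% and 25.4%, in the same order. On vasa replicate 1 the median log2 intensity of the standard core subunits was 11.38, inside the range of the uap56 arrays (11.18 to 11.52), while those of the other 2 vasa arrays were 11.19 and 11.04. For the regulatory subunits the median was 11.03 on vasa replicate 1, above all uap56 arrays (10.78 to 10.93), and 10.73 and 10.61 on the other 2. The median difference over the standard subunits was 0.29 when vasa replicate 1 was left out and 0.12 when vasa replicate 3 was. The part of these array differences in the results was not tested.

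**Figure D3:**
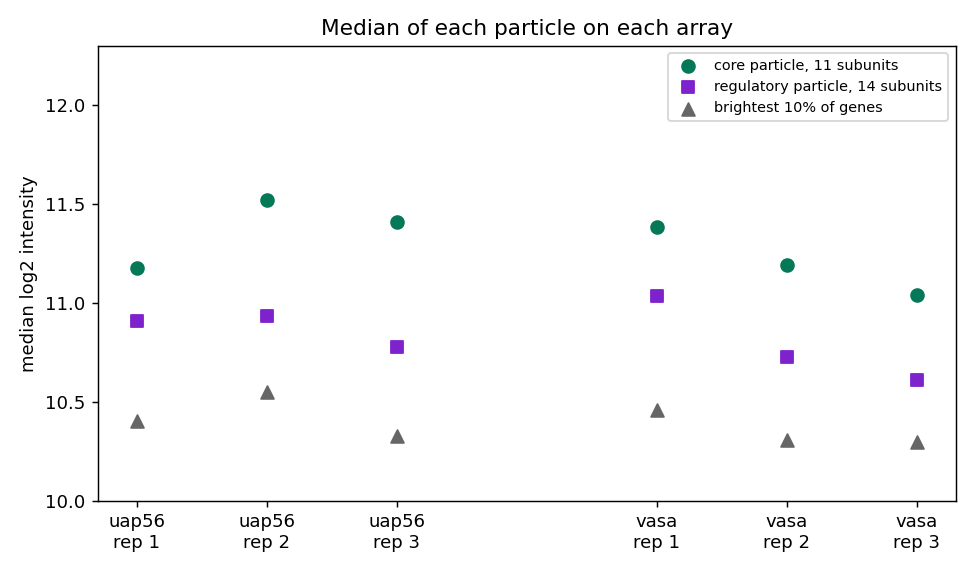
Median log2 intensity on each array (uap56 left, vasa right) for the 11 standard core subunits, the 14 standard regulatory subunits and the brightest 10% of genes. The core median is 11.38 on vasa replicate 1 and 11.04 on vasa replicate 3 and runs from 11.18 to 11.52 on the uap56 arrays.

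The testis-type paralogues gave weak signals in both groups. All 6 lay below the median gene on all 6 arrays, while the 25 standard subunits lay above it on all arrays. Different transcripts are read by different probes, so only the position against the median gene is given here and levels of genes are not ranked. No paralogue passed the test (0 of 6, and 0 with an unadjusted p under 0.05), and their standard errors of 0.31 to 1.11 leave wide intervals.

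Rpt3R, the paralogue of the ATPase gene Rpt3, had 51.1, 48.9 and 43.9 in uap56, against 86.2, 60.7 and 72.5 in vasa. It was the only paralogue among the 31 whose arrays did not overlap, with a difference of -0.60 (95% interval -1.30 to 0.11; adjusted p = 0.363 in limma).

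Prosalpha6T had 41.4, 49.2 and 111 in uap56 and 57.4, 19.6 and 78.2 in vasa, so the range within each group exceeded the gap between them. Prosbeta5R1, the paralogue of Prosbeta5, had 25.9, 33.6 and 58.9 in uap56 and 51.1, 33.2 and 68.9 in vasa, a difference of -0.40 (95% interval -1.43 to 0.63) beside the 0.80 of Prosbeta5. Prosalpha3T had 13.8, 26.4 and 17.5 in uap56 and 25.2, 21.4 and 13.2 in vasa (-0.05). These values overlap in every case. The paralogues of Prosalpha4 each had 1 vasa array near the bottom of the scale. Prosalpha4T1 had 52.0, 39.5 and 17.5 in uap56 and 47.7, 60.3 and 3.16 in vasa, and its difference of 0.66 was -0.70 without vasa replicate 3. Prosalpha4T2 had 14.5, 29.8 and 24.6 in uap56 and 18.6, 1.73 and 12.5 in vasa, and its difference of 1.57 was 0.53 without vasa replicate 2.

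The pattern of names missed subunits that the tables list under other names. A further 17 genes carry a subunit name today, and they were picked out after the values had been seen. Of the 7 standard subunits among them 0 passed, with 6 above 0 and a median of 0.23. At an unadjusted p under 0.05, 2 were higher in uap56 (10.8% of all genes). Of the 1369 genes in the brightest 10%, to which the 7 belong, 305 were higher in uap56 at that p and 56.4% lay above 0. Sem1, a subunit whose name fits no such pattern, is described after the 7. Joined with the 25 and with Sem1, the 7 gave 23 of 33 above 0, 12 of 14 in the core and 11 of 19 in the regulatory particle. In this joined set 2 were called toward uap56 (2.48% of all genes) and 1, Sem1, toward vasa (1.35% of all genes). Prosbeta1, whose product has the caspase-like active site, had 1224, 1480.2 and 1089 in uap56, against 903, 772 and 852 in vasa. The arrays did not overlap (log2 difference 0.58 ± 0.16 SE, adjusted p = 0.0793 in limma), and the gene passed after quantile normalization (0.50, adjusted p = 0.0488 in limma). Rpn13, a ubiquitin receptor, also had arrays that did not overlap, with 1448 ± 130.3 in uap56 and 1107 ± 149 in vasa (0.39, adjusted p = 0.209 in limma). Of the 9 testis-type paralogues among the 17, 0 passed and 7 had a difference below 0, with a median of -0.94. At an unadjusted p under 0.05, 1 was higher in vasa (7.38% of all genes). The standard errors of the 9 were 0.37 to 1.35, and the 95% interval lay within 2-fold for 0 of them. Prosbeta2R2 and Rpn12R each had a uap56 array at 1. Rpn13R (40.7 ± 12.0 in uap56 and 76.6 ± 15.4 in vasa) and Rpt4R (21.2 ± 12.2 in uap56 and 42.6 ± 6.54 in vasa) were higher on every vasa array than on every uap56 array. In that direction the arrays did not overlap for 10% of all genes.

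Sem1, a small subunit of the regulatory lid that in yeast is also part of an mRNA export complex, was higher in vasa. It was 1 of 6 genes on a list of subunits outside the name pattern, of which 1 passed toward vasa and 0 toward uap56 (list median 0.11). Sem1 had 1360.3, 1179 and 832 in uap56, against 2924, 2650.1 and 2172 in vasa. The groups were well separated, with a log2 difference of -1.22 ± 0.20 (SE; 95% interval -1.67 to -0.77; adjusted p = 0.0147 in limma). The other genes named from this list by smallest p besides Prosbeta1 were Prosbeta7 (0.42, adjusted p = 0.333 in limma) and Rpn3 (0.22, adjusted p = 0.537 in limma). The call of Sem1 held in 4 of the 6 fits without 1 array and was lost without uap56 replicate 2 (adjusted p = 0.0605 in limma) and without vasa replicate 2 (0.0601).

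Of 10 genes for activators, assembly factors and regulators, 2 passed toward uap56 and 0 toward vasa, with a list median of 0.15. Over all genes 2.48% passed toward uap56 and 1.35% toward vasa. Of the 6845 genes above the median intensity, 329 passed toward uap56 and 166 toward vasa. PI31, which encodes a binding partner of the proteasome that is needed for sperm maturation in flies, had 964, 1069 and 1244 in uap56, against 526, 500.2 and 409 in vasa. It was 2.28-fold higher in uap56 with arrays far apart (log2 difference 1.19 ± 0.16 SE, adjusted p = 0.00941 in limma), and passed in 5 of the 6 fits without 1 array, the exception being that without uap56 replicate 2 (adjusted p = 0.0502 in limma). Pngl encodes a glycanase, whose mammalian and worm relatives process a transcription factor of proteasome genes, and had 745, 807 and 690.2 in uap56, against 408, 489 and 482 in vasa. The arrays did not overlap (log2 difference 0.70 ± 0.15 SE, adjusted p = 0.0378 in limma), and the call was lost in all 6 fits without 1 array (difference 0.62 to 0.76, adjusted p = 0.0684 to 0.132). With a single variance prior the adjusted p in limma was 0.124 for PI31, 0.173 for Pngl and 0.146 for Sem1.

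The genes of the transcription factor itself did not pass. cnc, the fly gene of that family, averaged 791 ± 102 in uap56 and 890.2 ± 29.0 in vasa, and maf-S, its small partner, 983 ± 65.3 in uap56 and 758 ± 105 in vasa (adjusted p = 0.221 in limma, arrays not overlapping). CG9588, the relative of a mammalian assembly chaperone of the ATPase ring, had 351 ± 29.8 in uap56 and 258 ± 62.2 in vasa (adjusted p = 0.283 in limma). REG, an alternative cap of the core particle, averaged 1740 ± 155 in uap56 and 2171 ± 321 in vasa, and Pomp, which assists assembly of the core, 807 ± 119 in uap56 and 829 ± 345 in vasa. cnc, REG and Pomp were picked for their roles after the values had been seen.

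**Figure D4:**
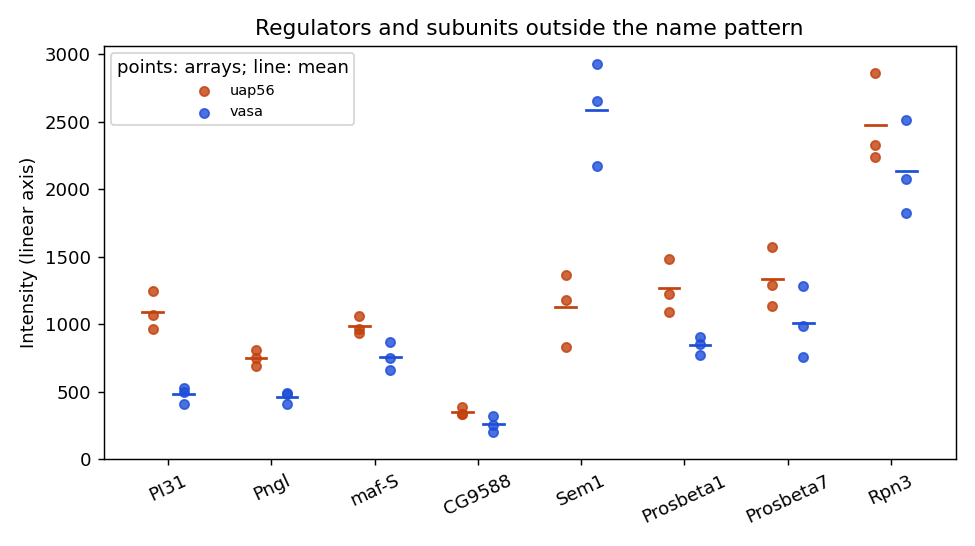
Intensity on each array (linear axis, uap56 left of vasa for each gene) of the named genes from the lists of regulators and of subunits outside the name pattern, with a line at the mean of 3 arrays. PI31 and Pngl lie higher in uap56 and Sem1 lies higher in vasa on all arrays.

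Of 18 genes that supply, attach, bind or remove ubiquitin, 0 passed in either direction and the list median was 0.10. At an unadjusted p under 0.05, 5 were higher in uap56 (10.8% of all genes) and 2 in vasa (7.38% of all genes). Of the 1369 brightest genes, to which most but not all of the 18 belong, 305 were higher in uap56 and 189 in vasa at that p. The polyubiquitin genes Ubi-p63E (14935 ± 487 in uap56 and 11313 ± 1001 in vasa, adjusted p = 0.0725 in limma) and Ubi-p5E (10596 ± 207 in uap56 and 8748 ± 408 in vasa, adjusted p = 0.175 in limma) were higher on every uap56 array. Ubi-p63E passed when arrays were centred on their median (0.41, adjusted p = 0.0439 in limma), and its log2 difference of 0.40 was 0.24 after quantile normalization. Both genes hold repeats of the same coding unit, so their signals may not be independent. Uba1, the ubiquitin-activating enzyme, had 2275, 2069 and 1679 in uap56 and 2724, 2680 and 2664 in vasa (-0.43, adjusted p = 0.138 in limma), and eff, a conjugating enzyme, averaged 2344 ± 189 in uap56 and 2950 ± 130 in vasa (-0.33, adjusted p = 0.184 in limma). Both were higher on every vasa array, while their intervals reached -0.12 for Uba1 and -0.06 for eff at the end nearer to 0.

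The members lie on all large chromosome arms, with 3 on 2L, 9 on 2R, 5 on 3L, 10 on 3R and 4 on X. The target was labelled as double-stranded DNA, so signals of overlapping genes on opposite strands cannot be told apart where probes are shared. By their annotated positions, 14 of the 31 members overlap another gene, among them Prosbeta5 (Lsm10) and Rpt6 (CG1801), while Rpn12 and Rpn5 overlap none. Lsm10 stood at 47.2 ± 13.2 in uap56 and 132 ± 27.8 in vasa (log2 difference -1.50, adjusted p = 0.0407 in limma), the direction opposite to Prosbeta5. Nuf2, which overlaps Sem1, had a difference of -0.04, exp, which overlaps PI31, -0.52, and Strica, which overlaps Pngl, -0.42. The 2 transcript entries of each of 7 members gave differences within 0.08 of each other.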

How the data were processed

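The authors deposited 1 table per array with an intensity for each transcript, summarised and normalized per the labels; the sources used here do not give the method, probes or build. Of 21158 entries, 20765 were kept and the others, at 0 on every array, left out. The log2 of the deposited intensity was taken with no pseudocount. Entries were paired with genes through RefSeq accessions of a Release 6 table, used for names, arms and neighbours only (19234 entries by accession, 1314 by name, 610 with the file's name kept). Each gene was read from its entry of highest mean.

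Groups were compared with limma 3.58.1 in R 4.3.3 (intensity trend, robust, two-sided, Benjamini-Hochberg over 13690 genes). The fit was tested on simulated data. Members, lists and this fit were chosen with earlier results of these data known. All members are given: array by array those past the threshold, every paralogue and the 4 largest other differences each way in each particle, with the rest as means. From each of the 3 other lists, the 4 genes with the smallest p are named. No array depth applies, and the 3 arrays per group limit the precision. Transposon tables were not used. Alternatives covered the variance prior, scaling, pseudocount, filter, block, threshold, gene naming and each array left out.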

Additional observations from a re-analysis of the deposited data

How the results depend on the processing

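The 2 member calls toward uap56 rest on a narrow margin. The number of members called toward uap56 was 0 with a single variance prior, 0 with the trend but no robust option, 0 with the replicate block, 0 at a threshold of 0.01 and 1 with the mean over transcripts, and 0 to 3 without 1 array. Toward vasa it was 1 after quantile normalization (Rpn5), and 0 without any 1 array. Over all genes, 340 passed toward uap56 and 185 toward vasa. These counts were 1 and 1 with a single prior, 140 and 86 with the replicate block, and 32 and 25 at the threshold of 0.01. Quantile normalization gave 344 toward vasa, and leaving out 1 array gave 28 to 307 toward uap56 and 29 to 202 toward vasa. The replicate numbers were not taken as pairing: same-numbered arrays had correlated deviations of -0.0281 to 2.88e-05, no array correlated best with its own number, and the labels name no shared batch. The median of the 31 members was 0.09 to 0.29 over the alternatives, which reuse the same arrays. The variance prior and the block left it at 0.20, since they do not change the differences. The pooled within-group SD of the members' median log2 intensity on an array was 0.16. The core median minus the regulatory median was -0.0164 to 0.178 without 1 array. Signs turned without 1 array for Prosalpha2 (-0.115 to 0.0246), Prosalpha3T (-0.325 to 0.158), Prosalpha4 (-0.153 to 0.0279), Prosalpha4T1 (-0.70 to 1.43), Prosalpha6 (-0.0308 to 0.141), Prosalpha6T (-0.14 to 0.86), Prosbeta3 (-0.0598 to 0.185), Rpn11 (-0.148 to 0.0920) and Hel25E (-0.31 to 0.00399). The cause was not tested. The filter at the 25th percentile removed 3 paralogues.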
